A study of Mus musculus with 22 samples.

Results

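Retnla and 6 genes of brain border macrophages (Mrc1, Cd163, Lyve1, Pf4, Ccl24 and F13a1) were followed through the mouse brain, to ask whether Retnla is highest where the border macrophage genes are highest. These are 7 of the 20129 genes that had a RefSeq-identified probe on the arrays. The 6 border macrophage genes were chosen by name as a panel to set beside Retnla, with earlier results of these data known. Retnla itself was selected on its measured values, because its fitted change along the horizontal series was the widest among the genes past that test's threshold. Its horizontal values are therefore given as a description with no test.

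Border macrophages sit in the meninges, around the vessels that enter the brain and in the choroid plexus, outside the tissue that microglia occupy. They take up proteins and debris from the fluid around them and carry scavenger receptors that microglia largely lack. Retnla encodes resistin-like molecule alpha, also known as RELMα or FIZZ1, a small secreted cysteine-rich protein. It is best known from macrophages exposed to interleukin 4 or interleukin 13, whose signal runs through the transcription factor STAT6, and it is also made by some epithelial and fat cells.

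Transcriptome Tomography slices a whole brain along an axis, pools the slices into slabs called fractions and measures the RNA of each fraction on an array. Total RNA came from 3 male C57BL/6J mice, an inbred strain, kept free of pathogens, with no treatment or engineered allele named in the labels. Mouse 1 gave the 10 coronal fractions, mouse 2 the 6 horizontal fractions and mouse 3 the 6 sagittal fractions. Their age was P7 by the sample titles and 3 days after birth by the age entry, and the end of the brain from which fraction 1 came was not given. Coronal fraction 10 pooled slabs 10 and 11, sagittal fraction 1 pooled slabs 1 and 2, and sagittal fraction 6 pooled slabs 7 to 9. Each fraction was measured on 1 array. A difference between neighbouring fractions thus has no replicate error, and a series cannot be told apart from its mouse. The levels below are log2 intensities relative to the 75th percentile of the array, so that 0 is that percentile, 1 unit is a doubling, and levels of different probes are not comparable.

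Each array had 29605 to 41965 of its 55600 probes well above background (53.2% to 75.5%). The SD of log2 intensity between repeated spots of a probe on 1 array was 0.0520 to 0.0810 for bright probes and 0.157 to 0.257 for dim ones. The slope of the spike-in controls was out of its accepted range on 7 arrays, which were coronal fractions 1 and 2, horizontal fractions 1 to 3 and sagittal fractions 1 and 3. On these a dim spike-in probe, a107, read 6.39 to 7.94 log2 units, against 3.07 to 4.94 on the other 15 arrays. All 6 horizontal arrays lay on 1 slide, so the horizontal series and that slide cannot be told apart. The tissue label was borne out by Stmn2 and Syt1 of neurons, both well above background on all 22 arrays. Landmark genes placed the ends of the series. Hoxb5, a hindbrain and spinal cord gene, was highest in coronal fraction 1 (4.44), Cdhr1 of the olfactory bulb was highest in coronal fraction 10 (5.16), and Avp, the vasopressin gene of the hypothalamus, was highest in horizontal fraction 6 (5.39).

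The stretches just upstream of Retnla, of its neighbouring paralog Retnlg and of Ccl8, the gene whose levels ran closest to those of Retnla, are shown because interleukin 4 signalling is the best known route to Retnla. Each is the 250 bases before the gene's start in RefSeq on the plus strand of build GRCm38.p6, at chr16:48842359-48842608, chr16:48872358-48872607 and chr11:82114935-82115184. Capitals mark the STAT6 motif, which is TTC, any 4 bases and GAA, and TATAAA, the TATA box.
Retnla: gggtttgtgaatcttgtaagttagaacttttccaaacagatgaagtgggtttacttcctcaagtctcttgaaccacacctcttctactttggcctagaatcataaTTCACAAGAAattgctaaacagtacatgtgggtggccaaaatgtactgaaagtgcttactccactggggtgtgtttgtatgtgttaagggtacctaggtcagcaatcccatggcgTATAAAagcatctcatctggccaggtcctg
Retnlg: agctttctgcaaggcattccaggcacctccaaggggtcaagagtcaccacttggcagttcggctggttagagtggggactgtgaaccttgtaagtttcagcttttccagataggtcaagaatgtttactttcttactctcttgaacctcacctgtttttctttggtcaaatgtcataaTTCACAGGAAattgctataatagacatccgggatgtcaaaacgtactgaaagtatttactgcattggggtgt
Ccl8: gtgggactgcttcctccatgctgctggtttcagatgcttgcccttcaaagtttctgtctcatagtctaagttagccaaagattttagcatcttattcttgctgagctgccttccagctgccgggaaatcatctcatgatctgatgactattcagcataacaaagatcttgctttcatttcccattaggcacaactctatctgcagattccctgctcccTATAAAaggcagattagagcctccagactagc
In these windows, searched on both strands, the STAT6 motif began 145 bases before the start of Retnla (position -145) and at position -72 of Retnlg, and was not in the Ccl8 window. The letters TATAAA began at position -30 of Retnla and -32 of Ccl8 and were not in the Retnlg window. The letters around and after the STAT6 motif are similar in Retnla and Retnlg. The Retnlg window ends within that likeness, before it reaches the place where TATAAA lies in Retnla. The stretch of Retnlg past its start was not searched, so these positions and letters do not show a difference between the paralogs. No capitalised letters overlapped. Of 32851 promoter windows of the same length, 5.85% held the STAT6 motif and 12.4% the TATA letters. The windows of Mrc1, Pf4, Cd163 and F13a1 held neither. A match is a description of letters, not a site.

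Retnla had the widest swings of the 7 genes. In the coronal series its signals in fractions 1 and 2 (-5.97 and -5.86) were not well above background. It read -3.59, -3.58, -4.09 and -3.94 in fractions 3 to 6, then -0.10 in fraction 7, 2.34 in fraction 8, 0.02 in fraction 9 and -1.76 in fraction 10. Retnla was thus low from fraction 1 to 6 and peaked in fraction 8, with fractions 7 and 9 on either side next. Coronal fraction 8 was 5.40-fold above fraction 7. Against fractions 1 and 2, where Retnla has only an upper bound, fraction 8 was at least 271-fold and at least 291-fold higher, a bound set by the higher of the probe's own signal and the lowest well-measured signal on the dim array.

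In the horizontal series Retnla read -2.85 in fraction 1, was not well above background in fractions 2, 3 and 4 (-5.44, -5.01 and -4.85), and read 0.46 in fraction 5 and 4.34 in fraction 6. Fraction 6 was 14.8-fold above fraction 5, 146-fold above fraction 1 and at least 878-, 653- and 585-fold above fractions 2, 3 and 4. The rise toward the fraction with the most Avp thus began in fraction 5, and fraction 6 held the highest Retnla value of all 22 arrays. The sagittal series was flatter, at -0.33, 1.09, -1.65, -2.60, 0.35 and 0.58 in fractions 1 to 6. Retnla was well above background in every sagittal fraction, was lowest in fractions 3 and 4 and was higher on both sides of them. From the lowest to the highest fraction Retnla spanned at least 8.19 log2 units in the coronal, at least 9.78 in the horizontal and 3.70 in the sagittal series, where the median gene spanned 1.26, 0.996 and 0.880. In the sagittal series, where it was measured throughout, 2.89% of genes spanned more.

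**Figure D1:**
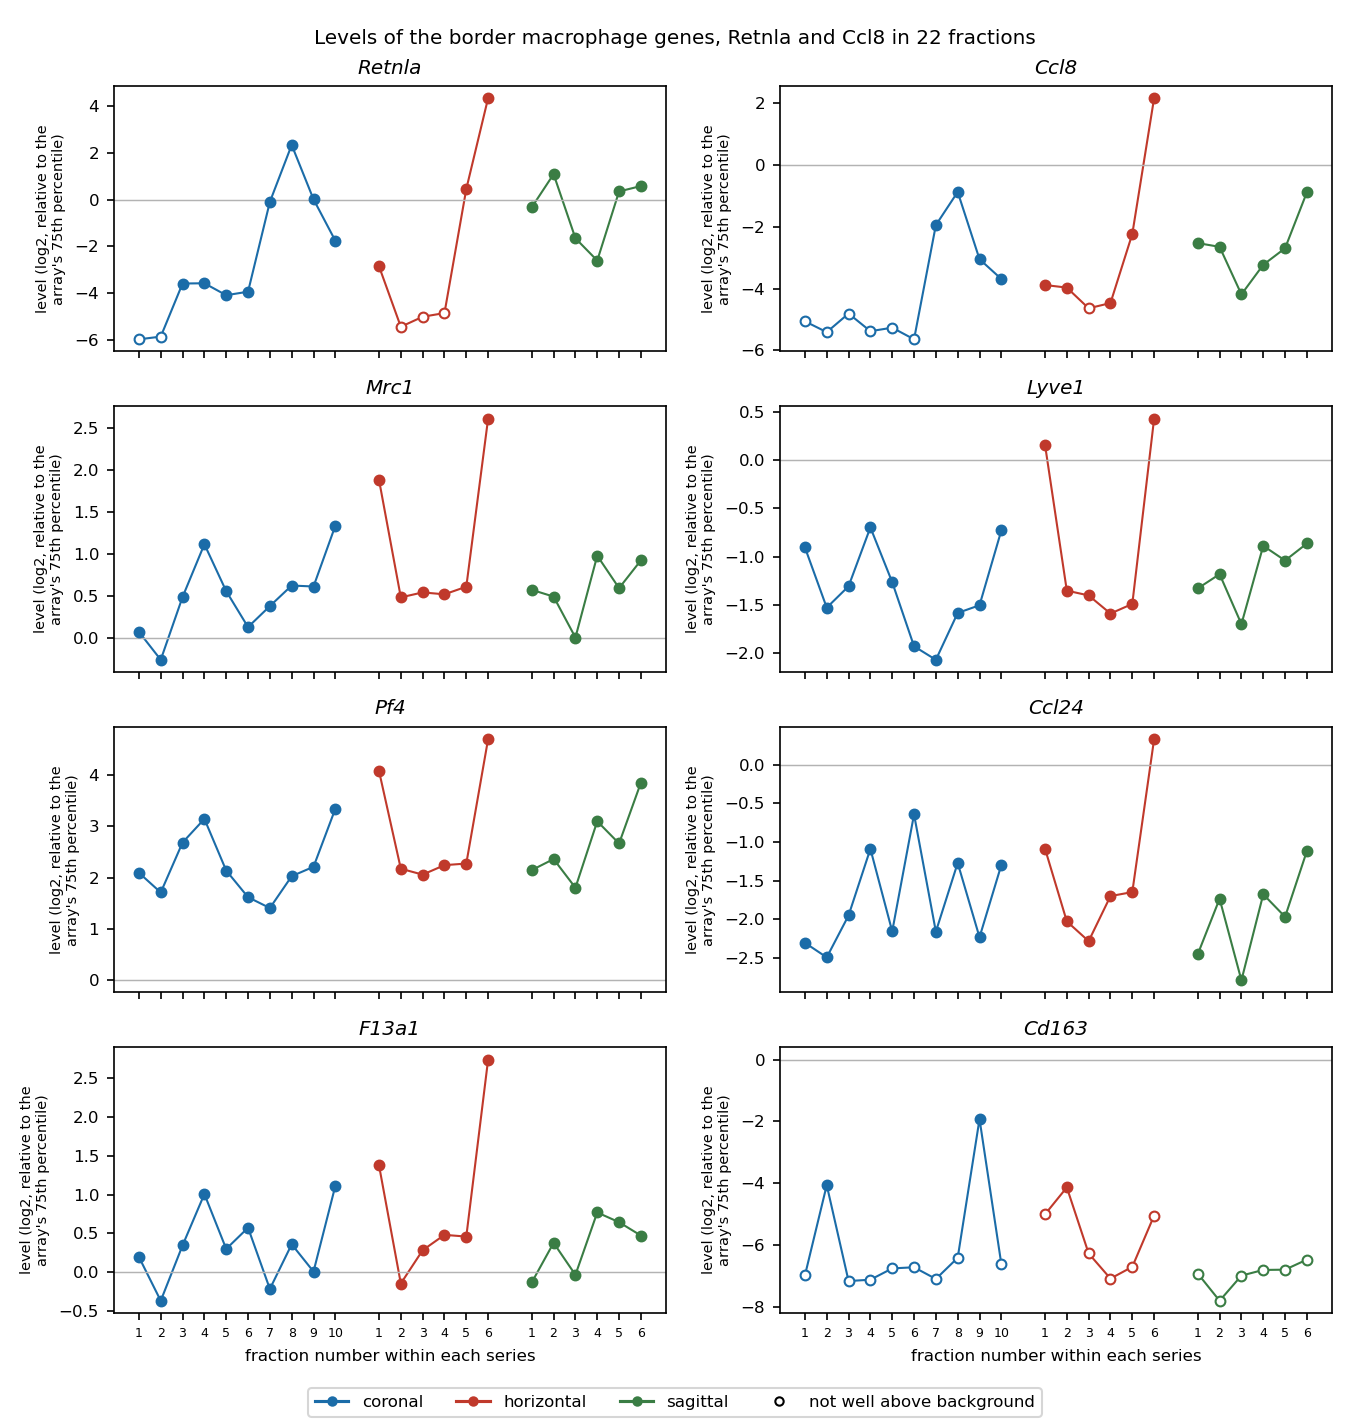
Level of each of the 7 genes and of Ccl8 (vertical axis, log2 intensity relative to the array's 75th percentile) by fraction number (horizontal axis) in the coronal, horizontal and sagittal series, 1 array per point, with open points where the probe was not well above background. Retnla peaks in coronal fraction 8 and horizontal fraction 6, while Mrc1, Lyve1, Pf4, Ccl24 and F13a1 change within a narrower span and have their 2 highest horizontal values in fractions 1 and 6.

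Scavenger receptors came next. Mrc1, the mannose receptor CD206, read 0.08, -0.26, 0.49, 1.12, 0.56, 0.13, 0.38, 0.63, 0.61 and 1.34 in coronal fractions 1 to 10. It read 1.88, 0.49, 0.54, 0.52, 0.61 and 2.61 in horizontal fractions 1 to 6, and 0.58, 0.49, 0.01, 0.98, 0.60 and 0.93 in the sagittal ones. Mrc1 was therefore high at both ends of the horizontal series and nearly level in between, with fraction 6 1.66-fold above fraction 1. Lyve1, a hyaluronan receptor that lymphatic vessels also carry, read 0.16, -1.35, -1.40, -1.59, -1.49 and 0.43 in horizontal fractions 1 to 6. The coronal levels of Lyve1 were -0.91, -1.53, -1.31, -0.70, -1.26, -1.93, -2.07, -1.58, -1.50 and -0.73, and its sagittal levels -1.33, -1.18, -1.70, -0.89, -1.04 and -0.86. Its horizontal course had the same 2 high ends, and its lowest coronal value lay in fraction 7, next to the peak of Retnla.

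Cd163, the scavenger receptor for haemoglobin bound to haptoglobin, was well above background on 3 of 22 arrays: coronal fraction 2 (-4.07), coronal fraction 9 (-1.93) and horizontal fraction 2 (-4.14). Elsewhere its signals, from -7.81 to -5.01, were not well above background. Cd163 did not enter the fit, since it was not well above background in any sagittal fraction. A defining receptor of these cells was thus not detectable in most fractions with its 1 probe. Cd163 stays in the 6-gene mean used below, so that mean is also given without it.

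Of the secreted factors, Pf4, platelet factor 4, is a chemokine made by platelets and by border macrophages. Pf4 read 4.08, 2.18, 2.06, 2.25, 2.28 and 4.70 in horizontal fractions 1 to 6. Its coronal levels were 2.10, 1.71, 2.69, 3.15, 2.14, 1.62, 1.41, 2.03, 2.21 and 3.35, and its sagittal levels 2.15, 2.36, 1.80, 3.10, 2.67 and 3.85. Pf4 again stood high at both horizontal ends, 1.54-fold higher in fraction 6 than in fraction 1, and was lowest in coronal fraction 7. Of the other platelet genes listed, Ppbp, Gp1ba and F2rl2 were well above background on 0 of 22 arrays, Itga2b on 3, Gp6 on 4, Selp on 15, Gp9 on 17, Treml1 on 21 and Gp1bb on 22. The part of platelets in the Pf4 values was not tested.

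Ccl24, eotaxin-2, attracts eosinophils, and it read -1.09, -2.02, -2.28, -1.70, -1.65 and 0.33 in horizontal fractions 1 to 6. Its coronal levels were -2.30, -2.49, -1.95, -1.09, -2.15, -0.64, -2.16, -1.27, -2.23 and -1.30, and its sagittal levels -2.45, -1.73, -2.79, -1.68, -1.97 and -1.11. Ccl24 was highest in horizontal fraction 6 by over 1 unit and in coronal fraction 6, where Retnla was low. F13a1, the A subunit of coagulation factor XIII, a transglutaminase, read 1.38, -0.15, 0.28, 0.48, 0.46 and 2.74 in the horizontal series. The coronal levels of F13a1 were 0.20, -0.37, 0.34, 1.01, 0.30, 0.57, -0.22, 0.36, 0.01 and 1.11, and its sagittal levels -0.13, 0.38, -0.04, 0.77, 0.64 and 0.47. F13a1 also had its 2 highest horizontal values in fractions 6 and 1.

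In horizontal fraction 6 all 5 border macrophage genes with enough signal were at least 1 log2 unit above the median of fractions 1 to 5, against 4.21% of the 39621 probes analysed. A drop of that size was found for 20.9% of probes and for 0 of the 5 genes. The differences were 2.46 for Pf4, 2.29 for F13a1, 2.07 for Mrc1, 2.03 for Ccl24 and 1.83 for Lyve1, and between 0.318% and 0.972% of probes had a larger one. Retnla, chosen on these values, was higher by at least 9.19, since its median fraction was not well above background. Since the slope was out of range in fractions 1 to 3, fraction 6 was also set against fractions 4 and 5 alone. All 5 genes were still higher by at least 1 unit, where 5.93% of probes were, with differences of 1.97 to 2.44, beside at least 6.54 for Retnla. With each array centred on its median instead, the median probe was 0.57 higher in fraction 6 and 24.6% of probes were higher by at least 1 unit, and the 5 genes were higher by 2.05 to 2.49.

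The opposite horizontal end differed between the genes. Fraction 1 was at least 1 unit above the median of fractions 2 to 5 for Pf4 (1.87), Lyve1 (1.60), Mrc1 (1.35) and F13a1 (1.01), and not for Ccl24 (0.78). Retnla was higher there by at least 2.08, its reference fractions being dim. That is 4 of the 5 border macrophage genes, but 22.2% of all probes did the same and the slope of that array was out of range, and the part of that in these values was not tested. In rank, fraction 1 was second for each of the 5 border macrophage genes, whereas for Retnla the second was fraction 5.

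The test of change with position was a limma model with a linear and a quadratic term for each series. Horizontal position was past the threshold of 0.05 for 4 of the 5 border macrophage genes tested, against 6.58% of all probes. In limma the adjusted p was 0.0295 for Lyve1, 0.0317 for Mrc1, 0.0357 for F13a1 and 0.0406 for Pf4, with fitted ranges of 2.03, 2.20, 2.61 and 2.75 log2 units. Ccl24 had an adjusted p of 0.0631 in limma and a fitted range of 2.45. These calls depended on how the arrays were scaled. With a107 as a covariate 0 of the 5 passed in limma (adjusted p from 0.0864 to 0.199), as with each array centred on its median (0.0667 to 0.0740), and all 5 had an unadjusted p under 0.05 in both. The number past the threshold in limma was also 0 without horizontal fraction 1, 2, 4, 5 or 6, with 3 to 5 genes at an unadjusted p under 0.05, and 2 without horizontal fraction 3 or without sagittal fraction 1, 4, 5 or 6.

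Along the coronal series Retnla changed, with an adjusted p of 0.0180 in limma and a fitted range of 6.44 log2 units, and it was the only 1 of 6 genes past the threshold, a share close to the 19.8% of all probes that passed. Adjusted p in limma for the other 5 ran from 0.211 for Mrc1 to 0.670 for F13a1. The Retnla call was lost with slide as a block (adjusted p 0.101 in limma), with normexp background correction, with the coronal arrays alone or the arrays whose slope was in range, with a linear term alone and without coronal fraction 2 (0.0544 in limma). Within the coronal arrays of slide 1 its adjusted p in limma was 0.0487. Along the sagittal series 0 of the 6 genes passed in limma, for the linear term (10.0% of all probes passed) or the quadratic term (0.0303%), with 1 and 0 at an unadjusted p under 0.05. The adjusted p in limma of Retnla was 0.914 and 0.689 for these terms. Pf4 had the lowest linear value, 0.153 in limma. Whether the coronal change of Retnla differs from that of the other genes was not tested.

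Whether Retnla followed the border macrophage genes was described by correlation over fractions. The fractions come from 3 brains, share slides and are neighbours in tissue, so r is given without a p. Each of the 6 genes was standardised to its mean and SD over the 22 fractions, and the 6 were averaged. Retnla had r = 0.397 with this mean over 22 fractions, and 17.6% of 16691 genes had a higher r with it. Without Cd163 in the mean, r was 0.416 over 22 fractions, 0.0808 in the coronal, 0.769 in the horizontal and 0.147 in the sagittal series. With Cd163, r was 0.126 over 10 coronal fractions, 0.714 over 6 horizontal fractions and 0.0750 over 6 sagittal fractions, where 44.9%, 9.68% and 48.1% of genes had a higher value. Under the alternatives tried, the coronal r ran from -0.188 to 0.479 and the sagittal r from -0.520 to 0.284, so neither kept its sign. The value over 22 rested on 1 array: without horizontal fraction 6 it was 0.0857, and the horizontal value without it was 0.214. On linear intensities, where that fraction weighs most, r over 22 was 0.818. It was 0.460 over the 15 arrays whose slope was in range, 0.0294 over the 7 others, -0.0473 over the 7 arrays of slide 1 and -0.105 over the 8 arrays of slide 3.

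The 5 detected border macrophage genes ran closer to each other than to Retnla over all 22 fractions. Their 10 pairs had r between 0.599 and 0.926 over 22 fractions, with a median of 0.854, whereas Retnla had 0.480 with Mrc1, 0.428 with Ccl24, 0.406 with F13a1, 0.371 with Pf4 and 0.240 with Lyve1. In the coronal series the median r was 0.703 among the 5, from 0.0647 to 0.863, and 0.0315 between them and Retnla, from -0.331 to 0.437, so that the ranges overlapped. In the horizontal series the medians were 0.956 and 0.743, and in the sagittal series 0.845 and 0.152. Standardised levels show where they parted. In coronal fraction 8 the border macrophage mean was -0.185 SD units and in fraction 7 it was -0.942, while Retnla had 2 of its 3 highest coronal values there. Without Cd163 the mean was -0.194 in fraction 8, and its lowest coronal value was -1.09, in fraction 2. The coronal high points of the mean were fractions 10 (0.660) and 4 (0.532). In horizontal fractions 1 and 6 the mean was 1.51 and 2.57, and in fraction 5, where Retnla had already risen, it was -0.212.

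**Figure D2:**
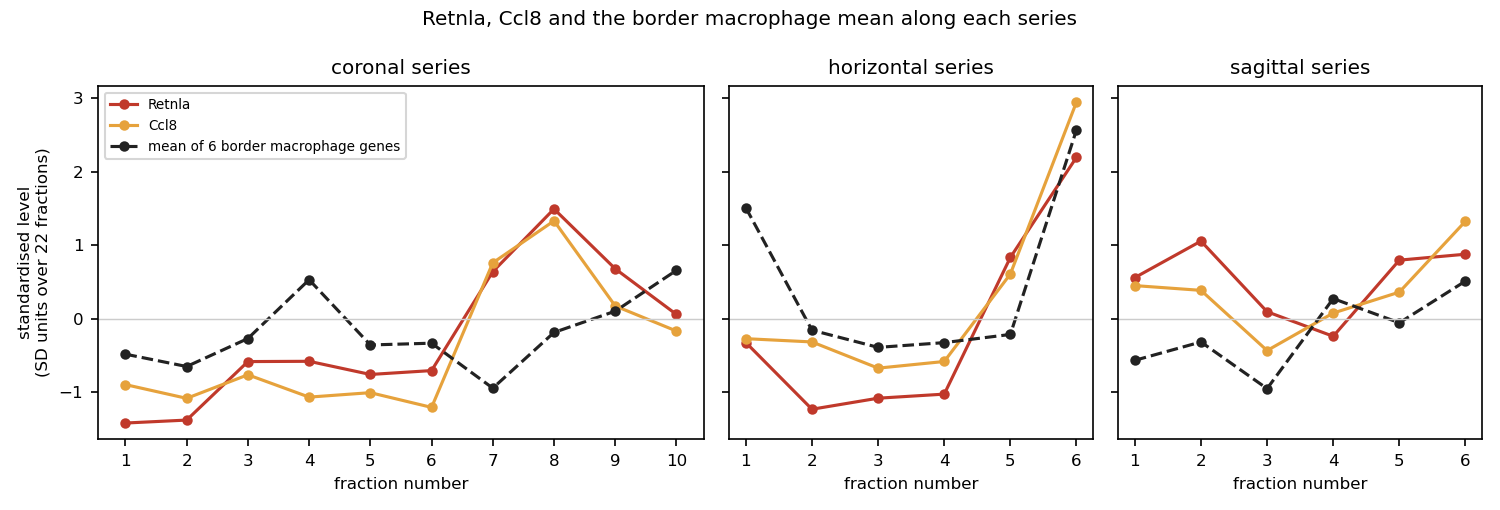
Standardised level (vertical axis, SD units over the 22 fractions) of Retnla, Ccl8 and the mean of the 6 border macrophage genes by fraction number (horizontal axis) in each series, 1 array per point. Retnla and Ccl8 rise together in coronal fractions 7 and 8 and in horizontal fractions 5 and 6, and the border macrophage mean is below 0 in coronal fractions 7 and 8 and at 1.51 in horizontal fraction 1.

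**Figure D3:**
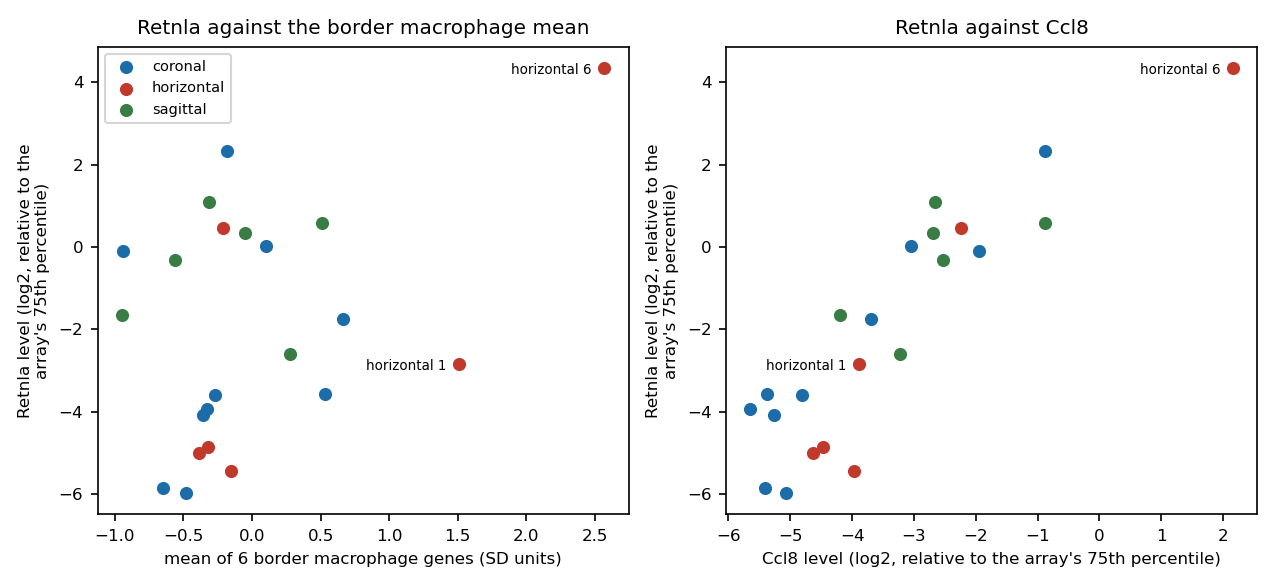
Retnla level (vertical axis, log2 relative to the 75th percentile) against the mean of the 6 border macrophage genes (SD units) and against the level of Ccl8 (log2 relative to the 75th percentile), 1 point per fraction, by series. Retnla has r = 0.397 with the border macrophage mean, with horizontal fraction 6 far to the upper right, and r = 0.897 with Ccl8.

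The gene most like Retnla over the 22 fractions was Ccl8, a chemokine that macrophages secrete and whose mouse form binds CCR8, itself 1 of the 20 other border macrophage genes listed. Its r was 0.897 (Spearman's rho 0.868), and no other of the 16691 genes was above 0.85, the study's own limit for similar expression. Within series, r with Ccl8 was 0.930 in the coronal, 0.952 in the horizontal and 0.637 in the sagittal series. It lay between 0.868 and 0.987 under the alternatives tried and between 0.875 and 0.915 without any 1 fraction. Within slides 1 and 3 it was 0.936 and 0.659.

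From coronal fraction 1 to 6 Ccl8 stayed below the level called well above background (-5.64 to -4.81), and it read -1.95, -0.88, -3.05 and -3.69 in fractions 7 to 10. In the horizontal series Ccl8 read -3.89 and -3.97 in fractions 1 and 2, -4.64 in fraction 3, where it was not well above background, and -4.47, -2.24 and 2.16 in fractions 4 to 6. Ccl8 thus peaked in the same coronal and horizontal fractions as Retnla, and had no high value in horizontal fraction 1. Its sagittal levels were -2.53, -2.65, -4.19, -3.23, -2.70 and -0.89. Horizontal fraction 6 was 21.0-fold above fraction 5 and at least 111-fold above fraction 3, and coronal fraction 8 was at least 15.3- to 23.1-fold above fractions 1 to 6. Since Ccl8 was picked for its likeness to Retnla, these levels are a description with no test.

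The next genes by r with Retnla were B3gnt2 (0.786), a glycosyltransferase, Lamb3 (0.781), the beta 3 chain of laminin, Bpifb3 (0.780), Lhx8 (0.756), a transcription factor of forebrain cholinergic neurons, and Arpp21 (0.746), a phosphoprotein of striatal neurons. Bmx (0.745), a kinase, Inpp5d (0.742), the blood cell phosphatase SHIP1, Acaa2 (0.741), a mitochondrial thiolase, and Nrros (0.738), a protein of myeloid cells, completed the 10. Axis landmark genes were set beside Retnla. Adora2a, an adenosine receptor of striatal neurons, was highest in coronal fraction 8 (2.59) and had r = 0.925 with Retnla in the coronal and 0.937 in the sagittal series, but 0.208 in the horizontal series. Drd1, a dopamine receptor, was also highest in coronal fraction 8 (0.48), with r of 0.770, 0.860 and 0.389. Avp had 0.965 with Retnla in the horizontal series and 0.472 in the coronal series. Which structures of these slabs held the Retnla RNA was not tested.

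The 10 genes most like the border macrophage mean were others: Nupr1 (0.953), a stress-induced gene, Asgr1 (0.940), Anxa1 (0.935), annexin A1, Mfap5 (0.934), a microfibril protein, Sult1a1 (0.927), Ms4a7 (0.924) of macrophages, Ifit3 (0.921), an interferon-induced gene, Mgp (0.915), matrix Gla protein, C1qtnf7 (0.914) and Foxc1 (0.913), a transcription factor of the meninges. Their r with Retnla was 0.322 to 0.500. The mean had 78 genes above 0.85, where Retnla had 1. The 78 include genes that are averaged into the mean, and Retnla was read from 1 probe, so these counts are not alike.

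Most other genes listed for border macrophages were also higher in horizontal fraction 6. Of 24 listed, 23 were on the arrays by name and 20 had enough signal. Of these 20, 13 were at least 1 log2 unit higher in horizontal fraction 6 and 1, Siglec1, read lower by that much (-1.63, with the probe well above background in 2 of 6 horizontal fractions), where 4.21% and 20.9% of probes were. Against fractions 4 and 5 alone 12 of the 20 were higher, and Siglec1 was at -0.13, or -0.85 with median centring. The median r of the 20 was 0.80 with the border macrophage mean and 0.41 with Retnla, beside medians over all genes of 0.0214 and 0.102. Horizontal position was past the threshold in limma for 10 of the 20 (8 with a rising and 2 with a falling linear term), coronal position for 4 and the sagittal linear term for 1, against 6.58%, 19.8% and 10.0% of all probes. Of these horizontal calls 0 were kept with a107 as a covariate and 4 with median centring, and of the coronal calls 3 and 1. Gas6 and Ednrb, among those of highest level, had differences of 0.32 and -0.01 in fraction 6. Ms4a7 rose by 2.76 (adjusted p 0.0183 in limma for horizontal position). Cd38 was past the coronal threshold in limma (adjusted p 0.00519), with r to Retnla of -0.0855 over 22 fractions. Chosen after their values were seen, Cbr2 rose by 2.85 (adjusted p 0.0285 in limma), with r of 0.627 to Retnla, Folr2, a folate receptor, by 2.15 (adjusted p 0.0174 in limma) and Wfdc17 by 4.06 (adjusted p 0.0321 in limma). With a107 as a covariate the adjusted p in limma of Ms4a7, Cbr2, Folr2 and Wfdc17 was 0.0542, 0.102, 0.0831 and 0.0979, and with median centring it was 0.0586 for Ms4a7 and Cbr2 and 0.343 for Cd38.

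Meningeal fibroblast genes were high in the same fraction. Of 16 meningeal fibroblast genes 15 were at least 1 unit higher in horizontal fraction 6, where 4.21% of probes were, with a median of 2.06. For horizontal position 6 were past the threshold in limma (5 with a rising and 1 with a falling linear term), against 6.58% of probes. Of these 6 calls 0 were kept with a107 as a covariate or with median centring, which gave 0.0939 and 0.0675 for Lum and 0.0944 and 0.0659 for Lama1 in limma. The median r of the list was 0.80 with the border macrophage mean and 0.39 with Retnla. Their summed level ran from 5.85 to 8.25 in the horizontal series, highest in fraction 6. Among them the collagen gene Col1a2 had a difference of 1.86, decorin (Dcn) 1.66 and Igfbp2 0.80, with adjusted p in limma of 0.0657, 0.0729 and 0.0621, while Lum, a proteoglycan, rose by 1.87 (adjusted p 0.0284 in limma) and Lama1, a laminin chain, by 1.30 (0.0183). In horizontal fraction 1 each of the 16 genes was also above its median of fractions 2 to 5, from 0.11 for Igf2 to 1.96 for Omd. The median probe was 0.27 higher there. The part of meningeal fibroblasts in the border macrophage values was not tested. In bulk fractions, fewer cells of a type and less RNA per cell cannot be told apart.

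Microglial genes had smaller differences when arrays were scaled to the 75th percentile. Of 18, 5 were at least 1 unit higher in horizontal fraction 6, where 4.21% of probes were, with a median of 0.86. With median centring, where 24.6% of probes were, 15 of the 18 were higher by that much, with a median of 1.46, as were 17 of the 20 other border macrophage genes (median 2.03) and 16 of the 16 meningeal fibroblast genes (2.21). Against fractions 4 and 5 alone 2 of the 18 microglial genes were higher by at least 1 unit, where 5.93% of probes were. The summed level of the microglial genes ran from 7.39 to 8.52 in the horizontal series, a sum set mainly by the bright Siglech probe. In fraction 1, where that sum was highest, Siglech was 1.20 above the median of fractions 2 to 5, but Cx3cr1 (-1.40), P2ry12 (-0.84) and C1qa (-0.73) were below it. Their median r was 0.42 with Retnla and 0.35 with the border macrophage mean. The 3 of highest level were Siglech, with a difference of -1.33, Csf1r, the receptor for colony stimulating factor 1, with 1.00, and Cx3cr1, the fractalkine receptor, with 0.52. Against fractions 4 and 5 alone the value of Siglech turned to 0.57, with 0.73 for Csf1r and 0.24 for Cx3cr1, and with median centring that of Siglech was -0.14. Horizontal position was past the threshold in limma for 4 of the 18, among them Cx3cr1 (adjusted p 0.0210) and Csf1r (0.0494), against 6.58% of probes. Of these 4 calls 0 were kept with a107 as a covariate (0.203 and 0.599 in limma for these genes) and 1 with median centring, where Csf1r was at 0.0681. Of 6 genes of MHC class II presentation, 4 were higher by at least 1 unit and 1, Ciita, the class II transactivator, read lower (-3.97, with the probe well above background in 5 of 6 horizontal fractions), where 4.21% and 20.9% of probes were. Against fractions 4 and 5 alone 3 were higher, where 5.93% of probes were, and Ciita was at -1.55. Horizontal position passed for 0 of the 6 in limma, against 6.58% of probes, with 3 at an unadjusted p under 0.05. H2-Ab1 had a difference of 1.19, or 0.98 against fractions 4 and 5 (adjusted p 0.0634 in limma) and H2-Eb1 one of 1.08 (0.124 in limma), while H2-DMa changed along the coronal series (0.00702 in limma). Cd74, the invariant chain, named after its value was seen, had r of 0.702 with Retnla.

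**Figure D4:**
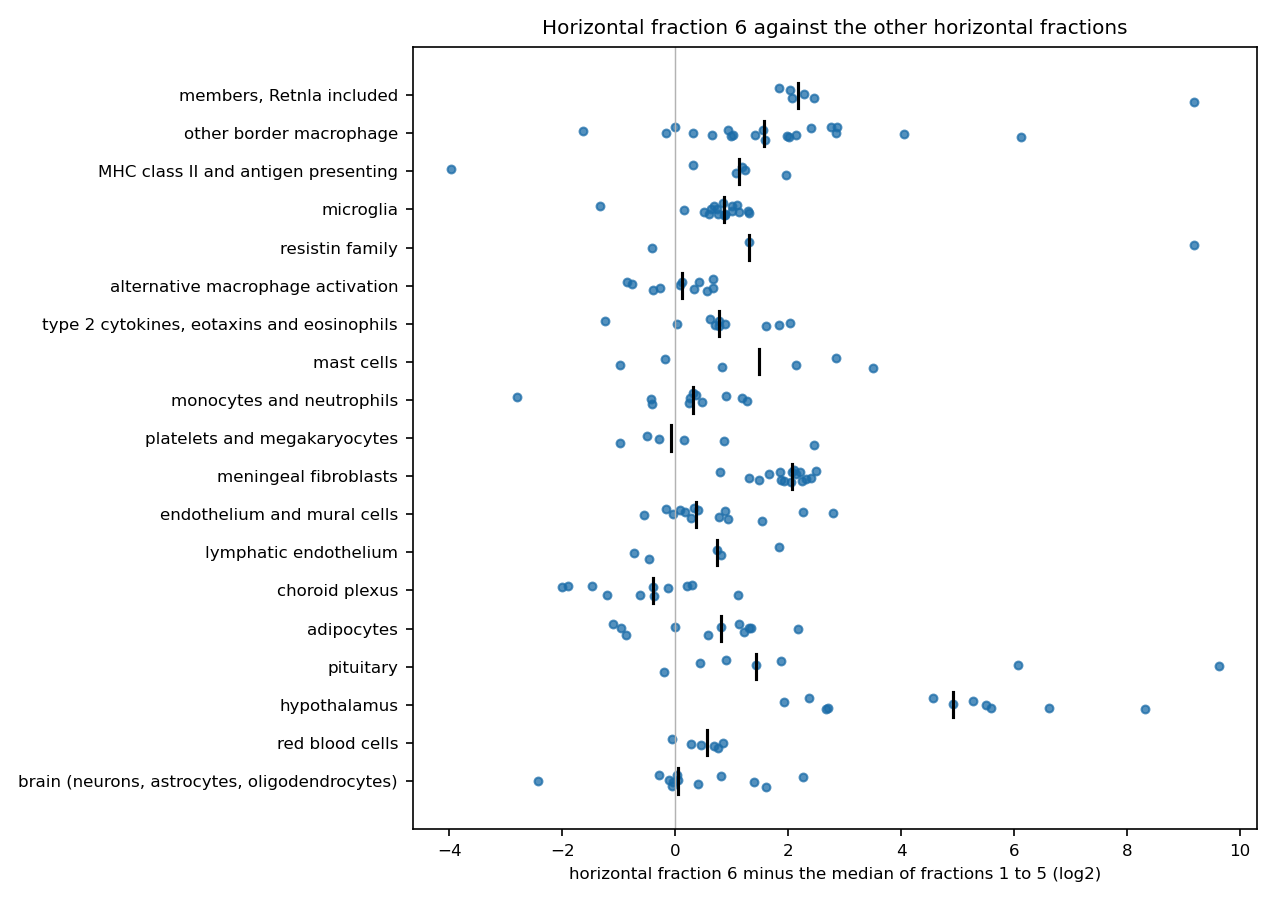
Difference between horizontal fraction 6 and the median of horizontal fractions 1 to 5 (horizontal axis, log2 units) for each gene of the marker lists with enough signal (rows), with a vertical bar at the median of each list. The median is 2.06 for meningeal fibroblasts, 1.58 for other border macrophage genes, 0.86 for microglia and 4.92 for the hypothalamus, and Retnla lies at 9.19, a lower bound.

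Genes of alternative activation, many of which respond to interleukin 4 as Retnla does, were also followed. Of 11 genes of alternative macrophage activation with enough signal, 0 were at least 1 unit higher in horizontal fraction 6, where 4.21% of probes were, with a median difference of 0.11. Against fractions 4 and 5 alone 1 was (5.93% of probes), and with median centring 4 were (24.6% of probes), with a median of 0.74. Their median r with Retnla was 0.12. Mgl2, a lectin, had r of 0.273, the chemokine gene Ccl17 0.268 and the transcription factor gene Klf4 -0.268. Horizontal position was past the threshold in limma for 1 of the 11, Ccl17 (adjusted p 0.0459), and coronal position for 4, among them Socs1 (0.0184) and Pparg (0.0273), against 6.58% and 19.8% of probes. The Ccl17 call was lost with a107 as a covariate (adjusted p 0.185 in limma) and with median centring (0.537), and those of Socs1 and Pparg with median centring (0.170 and 0.289). Named after their values were seen, Stat6 had r of 0.454 and Chil3, a chitinase-like protein, 0.122. The cytokine genes were dim: Il4 was well above background on 8 of 22 arrays, Il5 on 3 and Il13 on 0. Of 10 genes of type 2 cytokines, eotaxins and eosinophils with enough signal, 3 were higher by at least 1 unit in horizontal fraction 6, where 4.21% of probes were. Against fractions 4 and 5 alone 5 were (5.93% of probes), and with median centring 8 were (24.6%). Ccl24, 1 of the border macrophage genes above, is in this list and in each of these counts. Their median r with Retnla was 0.09. Il33, an alarmin, had -0.160 and the eosinophil peroxidase gene Epx 0.111. Coronal position was past the threshold in limma for 5 of the 10, against 19.8% of probes, and horizontal position for 1, Il33, against 6.58%. For coronal position the adjusted p in limma was 0.000860 for Ccr3, the eotaxin receptor, 0.00132 for Il33 and 0.0386 for Epx, and for horizontal position 0.0251 for Il33. With a107 as a covariate 4 of the 5 coronal calls and 0 of the horizontal ones were kept, and with median centring 2 and 1. Ccr3, well above background on 9 of 22 arrays, had r of 0.0619 to Retnla.

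The resistin family has 4 members in the mouse. Retn, resistin, a hormone of fat cells, read -2.79, -3.28, -2.76, -3.10, -2.68, -2.10, -1.55, -0.75, -1.59 and -2.05 in coronal fractions 1 to 10. Its horizontal levels were -1.08, -1.79, -1.49, -1.02, -1.25 and 0.06, and its sagittal levels -1.43, -2.08, -2.94, -1.68, -1.08 and 1.26. Retn was thus highest in the same coronal and horizontal fractions as Retnla, and in sagittal fraction 6. Retn had r of 0.609 with Retnla over 22 fractions, 0.923 in the coronal, 0.837 in the horizontal and 0.433 in the sagittal series. Its adjusted p in limma was 0.0370 for coronal position, 0.00984 for the sagittal linear term and 0.141 for horizontal position. The coronal call was lost with a107 as a covariate (0.0810 in limma) and the sagittal one with median centring (0.168). Retnlb was well above background on 0 of 22 arrays. Retnlg, which neutrophils make, was well above background on 7 and had r of -0.159 with Retnla. Whether these probes bind each other's transcripts was not tested.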

How the data were processed

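Transcriptome Tomography fractions of 3 brains were hybridised to 22 Agilent SurePrint G3 Mouse arrays in 1 colour (Cy3), designed on mm9. The authors' intensity values came from Feature Extraction 10.10.1.1, per the file headers, with the background already subtracted. They deposited log2 values too, for 47544 transcripts, of which 47478 matched a probe and lay within 0.02 of the log2 values used here.

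From the scanner files, control and outlier spots were left out, spots of a probe were averaged, and log2 processed intensity was scaled to the 75th percentile of each array for 55600 probes. Of 28087 RefSeq-identified probes, 26553 matched a symbol in a RefSeq gene table. A gene was read from its probe of highest median. F13a1 had 2 probes, of which the second did not have enough signal. A probe had enough signal if it was well above background, by the flag of Feature Extraction, in at least 1 fraction of each series (39621 probes).

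limma 3.58.1 in R 4.3.3 fitted an intercept, a linear and a quadratic slab position term per series over all 22 arrays, and p-values were adjusted by Benjamini-Hochberg over the 39621 probes, with a threshold of 0.05. The scatter is that of single arrays around the curves and holds no spread between animals. Correlations are Pearson's r. The fit was tested on simulated data with independent noise. Those data held no slide effect, no slope out of range and no likeness between neighbouring fractions, so that test cannot speak for these. Python 3.11.15, numpy 2.4.6, pandas 2.3.3 and matplotlib 3.10.9 were used.

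Alternatives were median centring, quantile normalization, normexp (offset 50, on the median signal, since the files used give no mean signal), the deposited table, a107 as a covariate, the arrays whose slope was in range, other filters on dim probes, slide as a block, a series alone, any probe of a gene, a linear term alone, and each fraction left out. Genes named are the 7, the 10 most like Retnla and the 10 most like the mean, the resistin family, axis landmarks and, per list, the 3 of highest level and up to 2 more past a threshold; others are marked as named after their values were seen, and some genes that the rule names are not reported here. The genes and lists were chosen with earlier results of these data known.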

Additional observations from a re-analysis of the deposited data

How the results depend on the processing

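The number of the 6 genes past the coronal threshold was 1, Retnla, and 0 in limma with normexp, on the 15 arrays whose slope was in range, among probes well above background on all arrays (which leaves Retnla out), with slide as a block, on the coronal series alone and with a linear term alone, and 0 to 1 without any 1 fraction. The adjusted p of Retnla in limma ran from 0.0104 to 0.249 over these alternatives and from 0.00992 to 0.0544 without any 1 fraction. Of the 5 border macrophage genes, 4 passed for horizontal position, and 0 did in limma with median centring, with a107 as a covariate, on the arrays in range, on the horizontal series alone and with a linear term alone. Without any 1 fraction the number was 0 to 5. The sagittal counts were 0 in limma throughout. The r of Retnla with the border macrophage mean over 22 fractions (0.397) was 0.818 on linear intensity, 0.296 or more under the other alternatives and 0.0857 to 0.472 without any 1 fraction. The coronal r (0.126) was 0.479 as Spearman's rho, and it reversed to -0.188 on the arrays in range and where Retnla was well above background (the same 8 fractions), to -0.0885 on linear intensity and to -0.0257 without coronal fraction 2, the highest without any 1 fraction being 0.329. The horizontal r (0.714) was 0.214 without fraction 6 and 0.905 at highest, and 0.543 to 0.899 under the alternatives. The sagittal r (0.0750) reversed to -0.152 with a107 regressed out, to -0.520 on the arrays in range, to -0.323 without fraction 3 and to -0.183 without fraction 6, and was 0.692 without fraction 4. No horizontal r was taken from the 3 arrays in range or the 3 with Retnla well above background. The Retnla difference in horizontal fraction 6, a lower bound, was 6.47 to 9.22, and that of Ccl24 1.57 to 2.39. The causes were not tested. The coronal arrays of slide 1, the mean without Cd163, the comparison with horizontal fractions 4 and 5 and the alternatives for Ccl8 were added after seeing the data. No paired analysis was possible because the fraction numbers mark positions along different axes of different mice and no test compares the series. Signal over background limits Retnla in 5 fractions and Cd163 in 19, where levels are only bounds.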

Other observations

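Other groups of genes were counted in horizontal fraction 6, some of them high there and others not. With each array centred on its median, 24.6% of all probes were higher by at least 1 unit. The numbers were then 11 of 11 for the hypothalamus, 6 of 7 for the pituitary and 7 of 11 for adipocytes. For mast cells the number was 4 of 6, for monocytes and neutrophils 7 of 11 and for the choroid plexus 2 of 11. Of 13 hypothalamic genes listed, 11 had enough signal, which a gene could reach in this series through fraction 6 alone. Scaled to the 75th percentile, all 11 were at least 1 log2 unit above the median of fractions 1 to 5, with a median of 4.92. Otp, left out by that filter, was at 0.65. Horizontal position was past the threshold in limma for 4 of the 11, Avp (adjusted p 0.0230) and Nkx2-1 (0.0496) included, against 6.58% of probes. With a107 as a covariate 0 of the 4 calls were kept (0.121 and 0.315 in limma for these genes), and all 4 were with median centring. Their summed level ran from 1.74 to 6.74. Against fractions 4 and 5 alone 9 of the 11 were higher by at least 1 unit, with a median of 2.75. In these counts scaled to the 75th percentile, 4.21% of all probes were higher and 20.9% lower by at least 1 unit, and 5.93% were higher against fractions 4 and 5. Of 12 pituitary genes listed, 7 passed the same filter. Of these 7, 4 were higher by at least 1 unit, as against fractions 4 and 5. Cga, the alpha subunit of the glycoprotein hormones, named after its value was seen, had a difference of at least 9.62, with the probe well above background in 1 of 6 horizontal fractions. The hormone precursor gene Pomc rose by 1.88 (adjusted p 0.0236 in limma, 0.0831 with a107 as a covariate and 0.0593 with median centring).

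Of 14 endothelial and mural genes, 3 were higher by at least 1 unit and horizontal position was past the threshold in limma for 2, against 4.21% and 6.58% of probes. These 2 were Acta2, which rose by 2.79 (adjusted p 0.0128 in limma), and Tagln, which rose by 2.27 (adjusted p 0.0243 in limma), with r to Retnla of 0.635 and 0.680. Both calls were lost with a107 as a covariate (0.108 for each in limma). The median difference of that list was 0.37. With median centring, where 24.6% of probes were, 10 of the 14 were higher by at least 1 unit, with a median of 1.11. Of 11 choroid plexus genes, 1 was higher (0 against fractions 4 and 5) and 4 were lower by at least 1 unit, with a median r of 0.00 to Retnla. Of 11 adipocyte genes, 5 were higher (7 against fractions 4 and 5), Retn included, with a median r of 0.09. Adipoq, adiponectin, had -0.598, and Retn had the highest r of the list, 0.609. Of 6 mast cell genes, 3 were higher by at least 1 unit, also against fractions 4 and 5, and 0 passed for horizontal position in limma, with 2 at an unadjusted p under 0.05. Of 11 monocyte and neutrophil genes, 2 were higher (7 against fractions 4 and 5), with a median r of 0.02 to Retnla. The 6 red blood cell genes had a median r of -0.15 to Retnla and 0.49 to the border macrophage mean. The 6 platelet genes with enough signal, Pf4 among them, had 0.05 and 0.03, and the 5 lymphatic ones, Lyve1 among them, 0.17 and 0.67.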
